A study of Sus scrofa with 45 samples.

Results

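White blood cells were compared with whole blood of pigs fed HFCD, a diet with 15% lard and 2% cholesterol. The animals were male Clawn miniature pigs, 12 weeks old when feeding began, and the blood was taken after 27 weeks of the diet. All arrays titled with this diet and week were taken: 4 of white blood cells and 3 of whole blood, 7 of the 45 arrays of the series. The other arrays came from pigs fed a control diet or HFCSD, which adds sucrose to HFCD, and from whole blood at earlier weeks. The labels number the males within each group and do not say whether a number is the same pig in both sample types. A replicate number was therefore used as a pairing only in an alternative fit.

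Whole blood RNA comes from every cell in the tube, including young red cells that still hold globin and other messages, and platelets, which carry RNA made earlier by their parent cell, the megakaryocyte. A leukocyte filter holds back white cells and lets most red cells, platelets and plasma run through. White cells respond to activation by transcribing a set of early genes and chemokines that are almost silent in resting cells.

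Whole blood RNA was made with the PAXgene kit and white blood cell RNA with the LeukoLOCK filter kit. All arrays of a sample type were scanned on 1 day, another day for the other type, and the 2 slides with whole blood and the 3 with white blood cells had no slide in common. Sample type, RNA kit, scan day and slide cannot be told apart, so each difference is a difference between these together. A spot counted as present when the software that read the scan marked it as well above background. The share of present spots was 48.9%, 43.6% and 46.0% in whole blood and 47.1%, 45.9%, 43.4% and 44.1% in white blood cells (exact permutation p = 0.571, where the smallest p that 4 against 3 arrays allow is 0.0571, 2 of 35 assignments). Before normalization the arrays differed in brightness: the log2 75th percentile was 6.81, 5.98 and 6.46 in whole blood and 7.89, 7.92, 7.12 and 7.35 in white blood cells (exact permutation p = 0.0571). Levels are log2 intensities after quantile normalization, a difference is white blood cells minus whole blood on that scale, given first in brackets with its standard error (SE), adjusted p is corrected for all probes tested (limma, Benjamini-Hochberg), and a probe rose or fell when adjusted p was under 0.05. These p-values measure the spread between these samples.

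White blood cell replicate 2 had the lowest levels of platelet genes. The list of 26 platelet genes on the array had 24 tested, and their mean level was 8.62, 8.71 and 8.58 in whole blood and 9.85, 6.89, 9.11 and 10.16 in white blood cells. PF4, a chemokine stored in platelet granules, was at 13.30, 13.33 and 12.78 in whole blood and 13.99, 9.17, 12.94 and 13.93 in white blood cells. ITGA2B, a subunit of the platelet fibrinogen receptor, was at 11.44, 11.89 and 11.75 in whole blood and 13.04, 7.57, 11.83 and 13.91 in white blood cells. TPM4, a tropomyosin of the platelet skeleton and the brightest probe of the list, was at 14.15, 14.55 and 13.52 in whole blood and 16.04, 12.46, 15.16 and 15.89 in white blood cells. In each of the 3, replicate 2 was the lowest of all arrays while the other white blood cell arrays were near or above whole blood. None of these values passed a test for a far array among 4 (ratio 0.677 for the list mean, 0.780 for PF4, 0.673 for ITGA2B and 0.754 for TPM4).

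HBE1, a globin gene of the erythroid list, was low on the same array: 13.45, 14.09 and 13.76 in whole blood and 13.23, 8.06, 12.48 and 13.91 in white blood cells. The rest of that list was mixed there. AQP1 (10.85) and RHCE (6.29) were not the lowest of the white blood cell arrays. SPTB (1.62, present on no white blood cell array) and the mean of the erythroid list (6.68) were. The groups overlapped, and HBE1 did not pass (−1.85, SE 1.23, adjusted p = 0.250). A second probe of HBE1 was at 12.70, 13.67 and 13.21 in whole blood and 12.04, 7.51, 11.36 and 12.71 in white blood cells (−2.29, adjusted p = 0.121). Among white blood cells of pigs on the control diet, replicate 1 was low in the same genes, with a platelet list mean of 7.51 against 10.45, 10.47 and 10.45, PF4 at 10.30, ITGA2B at 8.62 and HBE1 at 8.11. With HFCSD the list means of white blood cells were 10.13, 9.86, 8.74 and 8.34. How far other genes moved with the level of the platelet genes was not tested.

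**Figure D1:**
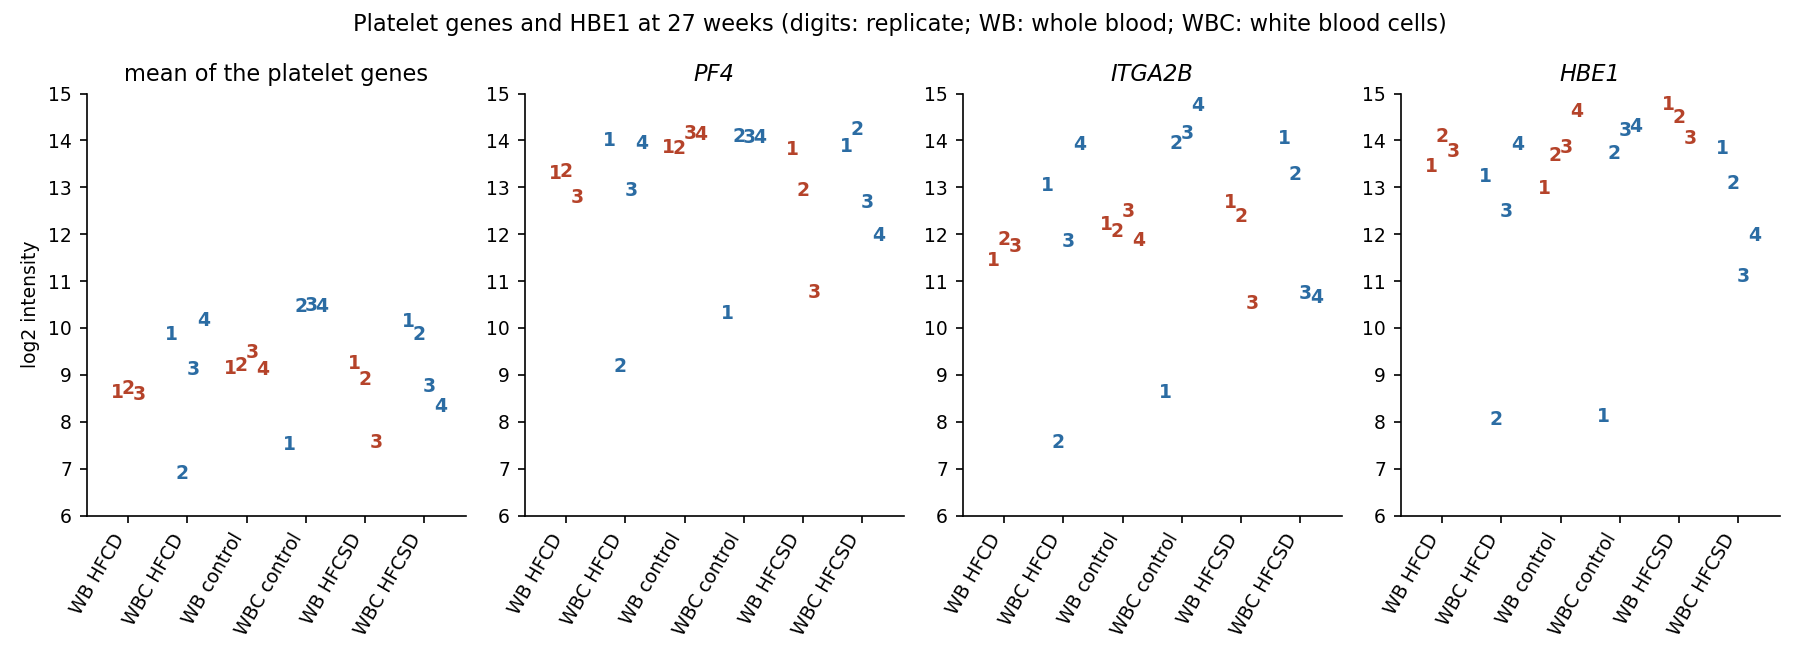
Mean log2 intensity of the platelet genes and log2 intensity of PF4, ITGA2B and HBE1 in each array of 27 weeks; digits are replicate numbers, WB whole blood and WBC white blood cells. HFCD white blood cell replicate 2 (list mean 6.89) and control white blood cell replicate 1 (7.51) lie below the other arrays of their groups.

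The sample types differed in a large share of probes. Of 19414 probes tested, 4691 were higher in white blood cells (24.2%) and 3980 were lower (20.5%), 8671 together (44.7%). A probe entered the test if at least 1 group had it present on all its arrays that could be used. The median difference over all probes was 0.19, with quartiles of −0.69 and 0.81. A member of a list is to be read beside that median, although each call is a test against no difference. The share of called probes that were higher was 54.1% and depended on the processing. Scaling each array to its 75th percentile in place of quantile normalization put it at 61.3% and the median at 0.38. It was 45.3% with the replicate number as a block, 48.9% by the methods' criterion, 47.2% without whole blood replicate 2 and 49.9% without whole blood replicate 3. The groups did not overlap for 9907 probes (51.0%). Falls were larger than rises: 1707 probes fell and 532 rose by 4-fold or more, and 358 fell and 14 rose by 16-fold or more.

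For probes present on no array of the dimmer group the fold is printed as at least a value, computed with the dim arrays raised to the lowest level at which probes were present on each. This held for 242 probes that rose and 722 that fell. Such probes passed the filter only through the brighter group, which favours a difference. Of the genes named below 13 were called in this way, and with no filter all 13 passed, with adjusted p up to 0.0374 (0.0137 for CXCL2 and 0.00807 for CXCL8). Of 1203 genes with a symbol, each shown by its brightest tested probe, 330 were higher (27.4%), 143 lower (11.9%) and 473 either (39.3%). Their median was 0.37, and these shares and this median stand beside those of the gene lists. The share of genes that rose was 17.5% without whole blood replicate 3 and 13.8% with the replicate number as a block. With scaling to the 75th percentile it was 38.5%. Fewer cells of a type and less RNA of a gene per cell cannot be told apart on these arrays.

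The largest rises among named genes were in chemokines that draw neutrophils. CXCL2, which acts on the neutrophil receptor CXCR2, was at 1.38, 2.42 and 1.57 in whole blood and 10.55, 13.32, 8.91 and 6.30 in white blood cells. All white blood cell arrays stood above all whole blood arrays, with replicate 2 highest and replicate 4 lowest of the white blood cells. The probe rose at least 78.6-fold (7.98, SE 1.38, adjusted p = 0.00285) and was present on no whole blood array. Without replicate 2 the probe also passed (6.80 with the dim arrays not raised, adjusted p = 0.00141). A second probe of CXCL2, also present on no whole blood array, gave 5.18 (adjusted p = 0.00894), or 3.67 with the dim arrays raised.

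CXCL8, interleukin 8, was at 1.39, 3.17 and 2.47 in whole blood and 8.71, 11.54, 8.87 and 6.77 in white blood cells, again with no overlap and with replicate 2 highest. It rose at least 45.1-fold (6.63, SE 0.98, adjusted p = 0.00157) and also passed without replicate 2 (5.77 with the dim arrays not raised, adjusted p = 0.000944). A second probe, present on 1 of 3 whole blood arrays, gave 4.33 (adjusted p = 0.00486). In the other diets the white blood cell array lowest in platelet genes also had high chemokine levels: control replicate 1 was at 10.69 for CXCL2 and 12.48 for CXCL8, and HFCSD replicate 4 at 12.49 and 11.14. Whether the platelet and chemokine levels are tied was not tested.

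RGS1, which damps signals from chemokine receptors, was at 5.60, 4.87 and 5.04 in whole blood and 10.49, 12, 10.51 and 9.62 in white blood cells and rose 44.8-fold (5.49, SE 0.51, adjusted p = 0.000671). CD69, an early activation marker on the surface of lymphocytes, was at 6.15, 6.01 and 6.50 in whole blood and 8.57, 9.38, 9.16 and 8.89 in white blood cells and rose 6.86-fold (2.78, SE 0.26, adjusted p = 0.000671). Neither gene overlapped between the groups, and in both the white blood cell values of replicate 2 were the highest. PMAIP1, a protein that promotes cell death, was at 7.09, 7.67 and 7.94 in whole blood and 9.95, 11.46, 10.17 and 9.68 in white blood cells (2.75, SE 0.44, adjusted p = 0.00205), again without overlap and highest in replicate 2.

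KLF4, a transcription factor of monocytes and of the early response, was at 4.70–4.91 in whole blood and 6.10–6.67 in white blood cells (1.63, adjusted p = 0.00121). JUN, a part of the AP-1 factor, was at 10.94–11.43 in whole blood and 12–12.69 in white blood cells (1.12, adjusted p = 0.00740), and CXCR4, the receptor for CXCL12, rose as well (1.25, adjusted p = 0.0114). In the list of immediate early and stress genes 7 of the 16 genes tested rose (43.8%), 0 fell and 9 did not pass (median 1.0), against 27.4% and 0.37 for all genes, and its level was 10.45, 10.05 and 10.18 in whole blood and 11.42, 12.11, 11.35 and 10.71 in white blood cells. Its brightest probe was that of SAT1, and the probes of EGR1, EGR2, EGR3 and NR4A1 were not tested because they were present on too few arrays. With 1 array left out 4–11 members rose, and the count moved by more than 1.5-fold without whole blood replicate 3 or white blood cell replicate 1 or 4. With the slide as a random block 4 of the 16 rose, where 19.0% of all genes did, and with no filter 4, where 21.3% did.

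Among cytokines and chemokines 10 of the 37 genes tested rose (27%), 6 fell and 21 did not pass (median 0.42); 61 were on the array. Of all genes 27.4% rose and 11.9% fell, against 16.2% that fell here. The 6 that fell, given here after their values were seen, were LIF, CXCR3, CCL19, CCR9, CXCL16 and MIF, by at most 1.74. CCL8, a monocyte chemoattractant, was at 5.16, 6.20 and 6.17 in whole blood and 7.86, 9.87, 8.83 and 7.65 in white blood cells (2.71, SE 0.55, adjusted p = 0.00546). IL15, which keeps natural killer cells and memory T cells alive, was at 4.01, 4.64 and 4.61 in whole blood and 5.89, 7.56, 6.94 and 6.35 in white blood cells (2.27, SE 0.40, adjusted p = 0.00318). IL27, made by activated antigen-presenting cells, was at 3.70–4.19 in whole blood and 5.69–6.44 in white blood cells (2.13, adjusted p = 0.000962), and TGFB1, stored in platelets and made by many leukocytes, at 8.93–9.75 in whole blood and 10.39–10.96 in white blood cells (1.22, adjusted p = 0.00798). None of the 4 overlapped between the groups, and CCL8 and IL15 were highest in white blood cell replicate 2. The count of members that fell was 3–5 with 1 array left out and moved by more than 1.5-fold without whole blood replicate 2 or 3.

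**Figure D2:**
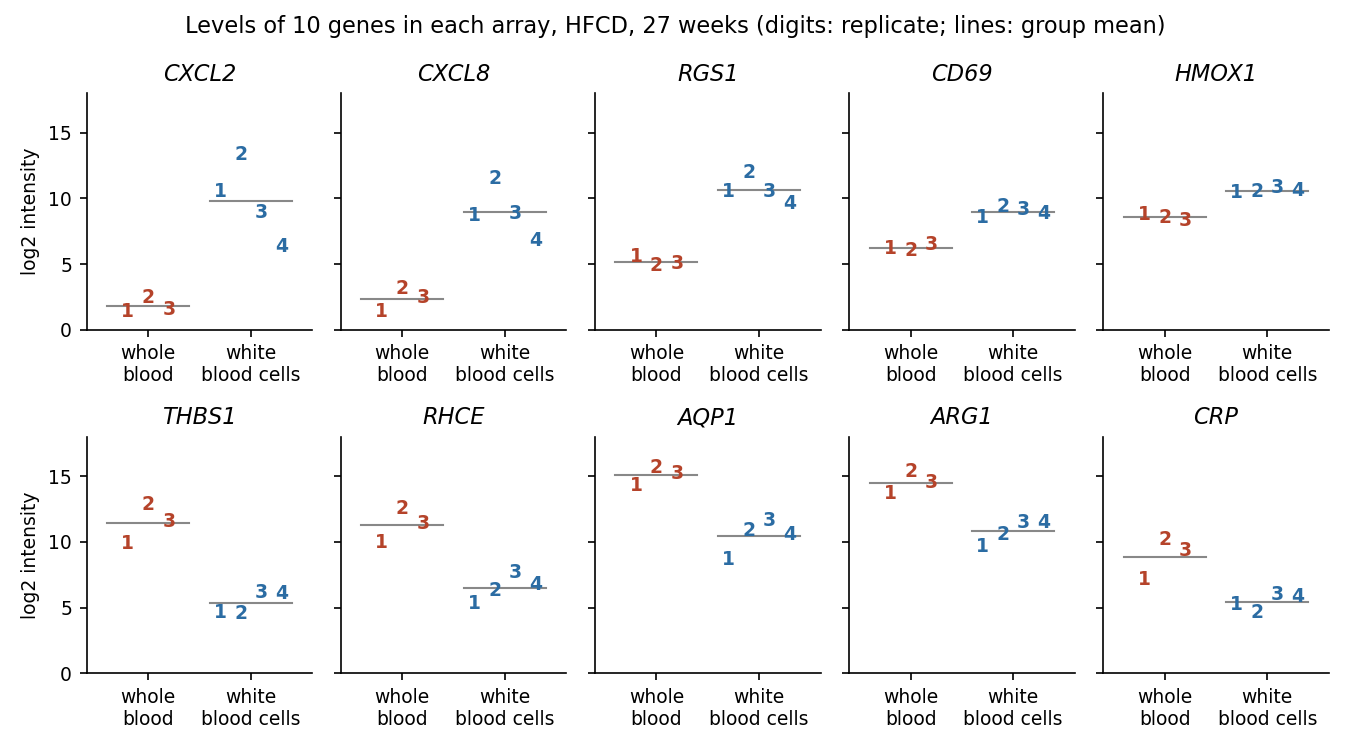
Log2 intensity of 10 genes in each array of whole blood (red) and white blood cells (blue), HFCD, 27 weeks; digits are replicate numbers and lines are group means. CXCL2 lies at 1.79 in whole blood and 9.77 in white blood cells, and THBS1 at 11.43 and 5.33.

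For T cell genes, 20 on the array, 7 of the 16 genes tested rose (43.8%), 0 fell and 9 did not pass (median 0.75), against 27.4% and 0.37 for all genes, with levels of 8.68, 8.24 and 8.94 in whole blood and 9.45, 9.77, 9.25 and 9.16 in white blood cells. CD3G, a chain of the T cell receptor complex, was at 10.35, 9.81 and 10.09 in whole blood and 12.07, 12.53, 11.52 and 11.28 in white blood cells (1.77, SE 0.33, adjusted p = 0.00396), without overlap. The brightest probe of the list, for CD3D of the same complex, overlapped and did not pass (0.19, adjusted p = 0.572), while its 2 other probes gave 1.86 (adjusted p = 0.00534) and 1.5 (adjusted p = 0.00342). CD2, an adhesion receptor of T cells, was at 6.41–7.60 in whole blood and 8.14–9.0 in white blood cells (1.41, adjusted p = 0.0108), and its second probe gave −0.26 (adjusted p = 0.474). With 1 array left out 3–7 members rose, moved by more than 1.5-fold without whole blood replicate 1 or 2 or white blood cell replicate 1, 2 or 3. With the slide as a random block 3 of 16 rose, where 19.0% of all genes did, and with no filter 4, where 21.3% did, so their share stood above that of all genes only in part of the fits. Probes of CTLA4 and TCRD were present on no array and those of CD40LG and IL2RA on too few to test.

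Of 9 natural killer and cytotoxic cell genes on the array 8 were tested, 3 rose (37.5%, against 27.4% of all genes) and none fell (median 0.51), with 2 rising when no filter was used. Their level was 10.46, 10.07 and 9.82 in whole blood and 10.96, 11.48, 11.15 and 10.53 in white blood cells. FASLG, the death ligand of cytotoxic cells, was at 3.09, 1.89 and 1.59 in whole blood and 4.93, 5.74, 4.88 and 4.42 in white blood cells, present on no whole blood array, and rose at least 2.87-fold (2.80, SE 0.43, adjusted p = 0.00180). PRF1, perforin, was at 4.30, 4.52 and 2.91 in whole blood and 6.56, 6.57, 6.82 and 6.06 in white blood cells, present on 2 of 3 whole blood arrays, and rose too (2.59, SE 0.40, adjusted p = 0.00188). GNLY, a granule protein that kills microbes and the brightest probe of the list, was at 15.48, 15.67 and 15.28 in whole blood and 14.95, 15.14, 15.37 and 14.31 in white blood cells, with overlap, and did not pass (−0.53, adjusted p = 0.160). NFATC1, a factor switched on by the T cell receptor, was at 5.93, 4.86 and 3.26 in whole blood and 7.66, 7.44, 7.63 and 7.35 in white blood cells, present on 2 of 3 whole blood arrays (2.84, SE 0.54, adjusted p = 0.00421).

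Monocyte and macrophage genes were higher in part. Of 34 on the array 29 were tested, 13 rose (44.8%, against 27.4% of all genes) and none fell (median 0.78, against 0.37), with levels of 8.85, 8.83 and 8.79 in whole blood and 9.66, 9.55, 9.88 and 9.49 in white blood cells. No white blood cell list mean was as low as any of whole blood. With 1 array left out 9–15 rose. HMOX1, which breaks down heme in macrophages, was at 8.80, 8.55 and 8.34 in whole blood and 10.42, 10.51, 10.82 and 10.57 in white blood cells and rose 4.04-fold (2.01, SE 0.22, adjusted p = 0.000746), without overlap. SPI1 and CEBPA, transcription factors that set the myeloid fate, were at 4.61–5.36 in whole blood and 6.41–7.31 in white blood cells (1.71, adjusted p = 0.00279) and 6.92–7.68 in whole blood and 8.75–9.31 in white blood cells (1.69, adjusted p = 0.00187). SPP1, osteopontin, rose as well (1.48, adjusted p = 0.00585).

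LYZ, the enzyme lysozyme and the brightest probe of the monocyte list, was at 13.61, 12.82 and 13.05 in whole blood and 14.59, 14.21, 14.27 and 13.12 in white blood cells, overlapped and did not pass (0.89, adjusted p = 0.0857). CD14, the coreceptor for bacterial lipopolysaccharide, did not pass on its brighter probe (−0.02, adjusted p = 0.973) and gave 1.47 (adjusted p = 0.0130) on its other. VCAN, IRF8 and LPL of the list were present on no array. RENBP, a renin-binding protein, was at 2.71, 3.02 and 1.69 in whole blood and 5.32, 4.67, 5.82 and 5.77 in white blood cells, present on no whole blood array, and rose at least 3.78-fold (2.92, SE 0.40, adjusted p = 0.00123). SLC12A4, a potassium and chloride transporter, was at 3.32–4.92 in whole blood and 6.73–6.94 in white blood cells (2.73, adjusted p = 0.00102; present on 2 of 3 whole blood arrays). BLOC1S5, which helps to build lysosome-related organelles, rose at least 4.81-fold (2.74, adjusted p = 0.000671).

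Among neutrophil genes 3 falls stayed when the fit was altered, while the number of rises depended on the fit. Of 20 on the array, 2 of the 17 genes tested rose (11.8%, against 27.4% of all genes). Another 3 fell (17.6%, against 11.9%) and 12 did not pass (median 0.33, against 0.37). The list level was 11.09, 11.50 and 11.15 in whole blood and 10.87, 11.09, 11.48 and 10.85 in white blood cells. ARG1, arginase, was at 13.66, 15.34 and 14.56 in whole blood and 9.67, 10.54, 11.47 and 11.51 in white blood cells and fell 13.2-fold (−3.72, SE 0.54, adjusted p = 0.00151), without overlap, and a second probe gave −3.54 (adjusted p = 0.0462). PGLYRP1, a granule protein that binds bacterial cell walls, was at 7.92, 10.47 and 8.93 in whole blood and 5.71, 6.47, 7.10 and 6.07 in white blood cells (−2.77, SE 0.58, adjusted p = 0.00642). C5AR1, the receptor for complement C5a, was at 7.82, 9.83 and 8.57 in whole blood and 6.30, 5.7, 6.62 and 5.58 in white blood cells (−2.69, SE 0.48, adjusted p = 0.00320). Neither gene overlapped between groups. FCGR3A, a receptor for immunoglobulin G and the brightest probe of the list, was at 13.92–14.61 in whole blood and 14.67–15.19 in white blood cells and did not pass (0.60, adjusted p = 0.0782), and CXCR1 was present on no array. The 3 falls stayed with any array left out, while the number that rose was 0–3 and moved by more than 1.5-fold without any 1 of 6 arrays, white blood cell replicate 4 being the exception. With the slide as a random block or with no filter 3 fell and 0 rose. Scaling to the 75th percentile gave 5 rises and 3 falls (median 0.66), where 38.5% of all genes rose (median 0.62). Normexp correction gave 3 rises and 3 falls.

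Genes of red cells and their precursors fell in part and none rose. Of 14 on the array 10 were tested and 5 fell (50%, against 11.9% of all genes). The median was −1.44, or −1.37 with dim values raised, against 0.37 for all genes. The list level was 8.35, 9.88 and 9.15 in whole blood and 7.13, 6.68, 7.84 and 7.79 in white blood cells. RHCE, a Rh blood group protein, was at 9.93, 12.51 and 11.43 in whole blood and 5.31, 6.29, 7.71 and 6.76 in white blood cells and fell 27.3-fold (−4.77, SE 0.69, adjusted p = 0.00150). AQP1, the water channel of the red cell membrane, was at 14.29, 15.69 and 15.22 in whole blood and 8.68, 10.85, 11.64 and 10.57 in white blood cells and fell 24.8-fold (−4.63, SE 0.66, adjusted p = 0.00140), with −2.89 (adjusted p = 0.00327) on its other probe. In both genes whole blood replicate 1 was the lowest of whole blood and white blood cell replicate 3 the highest of white blood cells, and the groups did not overlap.

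SPTB, a spectrin of the red cell skeleton, was at 3.67, 6.44 and 4.81 in whole blood and 2.47, 1.62, 2.55 and 3.0 in white blood cells, present on no white blood cell array, and fell at least 2.59-fold (−2.56, SE 0.61, adjusted p = 0.0110). KLF1, a transcription factor of erythroid precursors, was at 6.07, 7.56 and 7.90 in whole blood and 5.28, 5.34, 6.01 and 6.08 in white blood cells and fell although the groups overlapped (−1.5, SE 0.45, adjusted p = 0.0266). KLF1 did not pass without whole blood replicate 2 or 3 or white blood cell replicate 1 (adjusted p up to 0.103), and without whole blood replicate 3 only 3 members of the list fell. HBE1 was the brightest probe of the list. Probes of the adult globin HBA and of TFRC, the transferrin receptor, were present on no array.

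In heme synthesis and iron handling 3 of the 8 genes tested rose (37.5%, against 27.4% of all genes), 2 fell (25%, against 11.9%) and 3 did not pass (median 0.67). FTL, the ferritin light chain, was at 17.33, 17.46 and 17.46 in whole blood and 15.28, 15.19, 15.93 and 15.93 in white blood cells (−1.83, SE 0.26, adjusted p = 0.00140), and FTH1, the heavy chain and brightest probe of the list, at 17.33–17.46 in whole blood and 16.80–17.16 in white blood cells without passing (−0.38, adjusted p = 0.149). HMOX2, the heme oxygenase that most cells express, rose (1.56, adjusted p = 0.00521). ATPIF1, an inhibitor of the mitochondrial ATP synthase that erythroid cells need for heme synthesis, was at 15.69, 16.51 and 16.18 in whole blood and 13.13, 13.15, 13.96 and 13.97 in white blood cells and fell 5.95-fold (−2.57, SE 0.32, adjusted p = 0.000962). Neither FTL nor ATPIF1 overlapped. The list level was 9.55, 9.59 and 9.5 in whole blood and 9.49, 9.40, 10.05 and 9.81 in white blood cells.

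Platelet genes depended on white blood cell replicate 2. With all arrays 4 of 24 rose and 1 fell (median 0.50), while 13 rose and 1 fell without replicate 2 (median 1.31). TPM4 gave 0.82 (adjusted p = 0.436) with all arrays and 1.63 (adjusted p = 0.00742) without it. PF4 gave −0.63 (adjusted p = 0.655) and 0.49 (adjusted p = 0.274), and ITGA2B −0.10 (adjusted p = 0.955) and 1.24 (adjusted p = 0.0661). P2RY12, the platelet receptor for ADP, was at 3.28, 2.47 and 3.24 in whole blood and 5.28, 4.41, 5.73 and 5.76 in white blood cells, present on no whole blood array, and rose at least 3.40-fold (2.29, SE 0.38, adjusted p = 0.00246). TBXAS1, which makes thromboxane in platelets and monocytes, was at 4.46–5.23 in whole blood and 6.04–7.05 in white blood cells (1.75, adjusted p = 0.00380).

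THBS1, thrombospondin of platelet granules and of many other cells, was the platelet gene that fell. It was at 9.90, 12.85 and 11.55 in whole blood and 4.63, 4.54, 6.11 and 6.03 in white blood cells, without overlap, and fell 68.9-fold (−6.11, SE 0.70, adjusted p = 0.000817). Whole blood replicate 2 was the highest and replicate 1 the lowest of whole blood, and white blood cell replicates 3 and 4 lay above replicates 1 and 2. SPARC and PTGS1 of the platelet list were not tested, SPARC being present on 1 array and PTGS1 on none.

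CLPS, PTGDS and UPK2 were among the named genes that fell the most. CLPS, a cofactor of pancreatic lipase, was at 9.87, 13.20 and 12.11 in whole blood and 4.57, 3.40, 6.54 and 5.49 in white blood cells, present on 3 of 4 white blood cell arrays (−6.73, SE 0.90, adjusted p = 0.00115). PTGDS, a prostaglandin D synthase, was at 11.38, 13.84 and 12.87 in whole blood and 5.62, 5.13, 7.68 and 6.88 in white blood cells (−6.37, SE 0.73, adjusted p = 0.000816). UPK2, a protein of the bladder lining, was at 9.26, 11.22 and 11.54 in whole blood and 4.10, 4.11, 5.79 and 4.94 in white blood cells (−5.94, SE 0.62, adjusted p = 0.000740). Groups did not overlap in any of the 3, and in white blood cells replicate 3 was the highest of each.

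ACR, a protease of sperm, fell at least 47.6-fold (−6.56, SE 0.69, adjusted p = 0.000740), and SLC2A11, a sugar transporter, at least 46.8-fold (−6.31, SE 0.76, adjusted p = 0.000875), both present on no white blood cell array. RHBG, an ammonium transporter of kidney and liver, SPEF2, a protein of the sperm tail, and CAV3, the muscle caveolin, were present on 3 of 4 white blood cell arrays and fell as well (−6.15, adjusted p = 0.000886; −5.77, adjusted p = 0.00189; −5.71, adjusted p = 0.00439). Over all 3980 probes that fell, whole blood replicate 2 was the highest of its group in 51.8% and the lowest in 37.2%, and replicate 1 the highest in 25.6% and the lowest in 46.7%. Over the 4691 that rose, replicate 2 was the lowest in 61.7% and the highest in 15.2%, and replicate 1 the highest in 61.8%. Whole blood replicate 2 was also the dimmest and replicate 1 the brightest array of whole blood before normalization, whose part was not tested.

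Genes of plasma proteins that the liver secretes fell in part, and of 33 on the array only 12 were tested. Of these 5 fell (41.7%, against 11.9% of all genes) and 3 rose (25%, against 27.4%). The median was −0.88 (−1.41 to −0.45 with 1 array left out), with levels of 5.57, 7.12 and 6.20 in whole blood and 5.13, 4.72, 5.99 and 5.64 in white blood cells. CRP, the acute phase reactant, was at 7.14, 10.19 and 9.34 in whole blood and 5.22, 4.63, 5.99 and 5.87 in white blood cells and fell 11-fold (−3.46, SE 0.68, adjusted p = 0.00486). ITIH4 and ITIH2, chains of inter-alpha-trypsin inhibitors, were at 4.62–6.69 in whole blood and 1.48–1.87 in white blood cells (at least 4.06-fold; −3.93, adjusted p = 0.000759; present on no white blood cell array) and 8.27–10.41 in whole blood and 4.18–6.04 in white blood cells (−3.83, adjusted p = 0.00232). VTN, vitronectin and the brightest probe of the list, fell on that probe (−2.88, adjusted p = 0.00944) and not on its other tested probe (0.25, adjusted p = 0.700). SAA3, a serum amyloid that macrophages also make, went the other way and rose at least 3.01-fold (2.34, adjusted p = 0.00231). ALB, APOB and TTR of the list were present on no array.

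Muscle and vessel wall genes were mixed and stand beside all genes, of which 27.4% rose and 11.9% fell (median 0.37). In skeletal muscle genes 3 of the 9 genes tested rose (33.3%), 2 fell and 4 did not pass (median −0.28), and without white blood cell replicate 2 the median was 0.20. PYGM, muscle glycogen phosphorylase, was at 9.54, 11.02 and 9.82 in whole blood and 5.90, 5.38, 7.28 and 6.71 in white blood cells and fell 14-fold (−3.81, SE 0.52, adjusted p = 0.00121), without overlap. In smooth muscle and vessel wall genes 6 of the 17 genes tested rose (35.3%), 2 fell and 9 did not pass (median 0.77), with levels of 6.82, 7.56 and 7.37 in whole blood and 7.82, 6.52, 7.87 and 8.18 in white blood cells. White blood cell replicate 2 was the lowest array of this list, as in the platelet genes, and without it 9 rose. DCN, a proteoglycan of connective tissue, was at 6.14, 9.67 and 8.67 in whole blood and 4.37, 3.72, 5.26 and 4.37 in white blood cells (−3.73, SE 0.76, adjusted p = 0.00566), and VCAM1, an adhesion molecule of endothelium and macrophages, rose at least 3.42-fold (2.64, adjusted p = 0.00317) and was present on no whole blood array. The count of vessel wall genes that fell was 1–4 with 1 array left out and moved by more than 1.5-fold without whole blood replicate 1, 2 or 3 or white blood cell replicate 1 or 3. MYH7, MB and CKM of the muscle list and COL1A1, TAGLN and CDH5 of the other were not tested.

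Among genes of cholesterol uptake and synthesis 5 of the 11 genes tested rose (45.5%, against 27.4% of all genes), 1 fell and 5 did not pass (median 0.57). With the slide as a random block 3 rose, where 19.0% of all genes did, and with no filter 3, where 21.3% did. With the control diet 3 of the 11 rose and 0 fell (median 0.49), and with HFCSD 5 rose and 2 fell (median 0.90). INSIG1, which holds the sterol sensor in the endoplasmic reticulum, rose on 1 probe, at 6.66, 6.16 and 5.64 in whole blood and 8.40, 8.55, 8.50 and 7.58 in white blood cells (2.11, SE 0.34, adjusted p = 0.00211), and fell on its other (−3.33, adjusted p = 0.00337). Over the 7 arrays the 2 probes had means of 7.36 and 7.28, so the choice of the first as the brighter was near a tie, and in whole blood the second was brighter (9.18 against 6.15). SQLE, an enzyme that makes sterols, was at 5.10–5.57 in whole blood and 5.76–6.33 in white blood cells (0.66, SE 0.23, adjusted p = 0.0494) and passed in no fit with 1 array left out except without white blood cell replicate 4 (adjusted p up to 0.141). With 1 array left out 3–5 members rose, moved by more than 1.5-fold without any 1 of 6 arrays, again other than white blood cell replicate 4, and 0–2 fell, moved without any but white blood cell replicate 3. The list level was 8.0, 8.06 and 8.11 in whole blood and 8.49, 8.33, 8.55 and 8.27 in white blood cells.

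In the list of targets and partners of the sterol receptor LXR, 2 of the 8 genes tested rose (25%, against 27.4% of all genes). None fell and 6 did not pass (median 0.21). ABCA1, the pump that hands cholesterol to lipoproteins and the brightest probe of the list, was at 12.47, 12.33 and 12.49 in whole blood and 12.25, 12.66, 12.57 and 12.47 in white blood cells, overlapped and did not pass (0.06, SE 0.20, adjusted p = 0.841). NR1H3, which encodes LXR alpha, was at 6.78, 6.71 and 6.44 in whole blood and 7.86, 7.76, 8.59 and 8.12 in white blood cells (1.44, SE 0.26, adjusted p = 0.00324), and RXRA, its partner, at 2.92–4.06 in whole blood and 4.65–5.78 in white blood cells (1.48, adjusted p = 0.0129; present on 2 of 3 whole blood arrays). RXRA did not pass with normexp correction (0.36, adjusted p = 0.106) or with the replicate number as a block (adjusted p = 0.0736). DGAT1, which makes triglyceride, was at 3.79–4.88 in whole blood and 5.23–6.56 in white blood cells (1.77, adjusted p = 0.00744). ABCB4, which moves phospholipid into bile, was at 4.91, 7.89 and 7.16 in whole blood and 2.44, 1.72, 1.44 and 1.42 in white blood cells, present on no white blood cell array, and fell at least 8.29-fold (−4.90, SE 0.65, adjusted p = 0.00111). The list level was 8.20, 8.56 and 8.43 in whole blood and 8.63, 7.97, 8.64 and 8.68 in white blood cells.

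Ribosomal protein genes were close to all genes in their share of rises (31% against 27.4%) and in their median (0.38 against 0.37), and none was lower: 9 of the 29 genes tested rose, 0 fell and 20 did not pass (median 0.38). RPL5, a protein of the large subunit, was at 13.57, 12.19 and 12.65 in whole blood and 15.09, 15.03, 14.66 and 14.48 in white blood cells and rose 4.03-fold (2.01, SE 0.35, adjusted p = 0.00283). RPL36AL was at 12.79–13.57 in whole blood and 14.76–15.06 in white blood cells (1.78, adjusted p = 0.00120) and RPL22 at 12.41–13.67 in whole blood and 14.57–15 in white blood cells (1.59, adjusted p = 0.00529), with −0.91 (adjusted p = 0.0583) on the other tested probe of RPL22. Whole blood replicate 2 was the lowest array for all 3, and without it 5 members rose. The list level was 14.18, 13.65 and 14.07 in whole blood and 14.46, 14.59, 14.50 and 14.39 in white blood cells, and its brightest probe was that of RPS23.

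Among respiratory chain and ATP synthase genes 4 of the 21 genes tested rose (19%, against 27.4% of all genes), 1 fell and 16 did not pass (median 0.31). COX6C and COX7C, subunits of cytochrome c oxidase, were at 12.07–12.72 in whole blood and 13.58–13.81 in white blood cells (1.42, adjusted p = 0.00226) and 10.01–10.74 in whole blood and 11.83–12.43 in white blood cells (1.57, adjusted p = 0.00259). ATPIF1 was the member that fell and the brightest probe. The number that rose was 7 without white blood cell replicate 2. In glycolysis 3 of the 11 genes tested rose (27.3%), 0 fell and 8 did not pass (median 0.64): GPI, the enzyme after hexokinase, was at 5.19, 4.98 and 4.39 in whole blood and 7.36, 6.72, 7.44 and 7.0 in white blood cells and rose 4.86-fold (2.28, SE 0.28, adjusted p = 0.000953), and LDHA, which makes lactate, at 11.57–11.63 in whole blood and 12.38–12.79 in white blood cells (1.0, adjusted p = 0.00488). Neither overlapped.

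Genes of MHC class I and class II were not tested against each other or against all genes. In the class I list 4 of the 11 genes tested rose (36.4%), 0 fell and 7 did not pass (median 0.61), against 27.4% and 0.37 for all genes, with levels of 12.18, 11.67 and 11.82 in whole blood and 12.54, 12.34, 12.93 and 12.70 in white blood cells. SLA-7, a class Ib molecule of the pig, was at 13.36, 12.62 and 12.11 in whole blood and 14.42, 13.78, 14.61 and 14.43 in white blood cells (1.61, SE 0.34, adjusted p = 0.00656), without overlap. SLA-1 was the brightest of the list, and its brightest probe did not pass (0.11, adjusted p = 0.717). Several of its other probes rose, by 1.01 to 2.24, another fell (−1.09, adjusted p = 0.0145) and the rest did not pass. In class II 1 of 5 rose (20%) and none fell (median 0.08). SLA-DRA, a class II alpha chain, was at 13.79, 13.47 and 14 in whole blood and 13.88, 14.37, 13.78 and 13.65 in white blood cells and did not pass (0.16, SE 0.25, adjusted p = 0.624). The 1 class II call was lost when any array was left out other than whole blood replicate 3 or white blood cell replicate 2. The proteasome list, which shares members with class I, had 4 of 10 higher and none lower (median 0.63, 2–4 higher with 1 array left out, moved without whole blood replicate 2 or 3 or white blood cell replicate 2, 3 or 4). PSME2, an activator of the proteasome, was at 11.22–11.98 in whole blood and 12.45–12.74 in white blood cells (1.0, adjusted p = 0.0110).

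**Figure D3:**
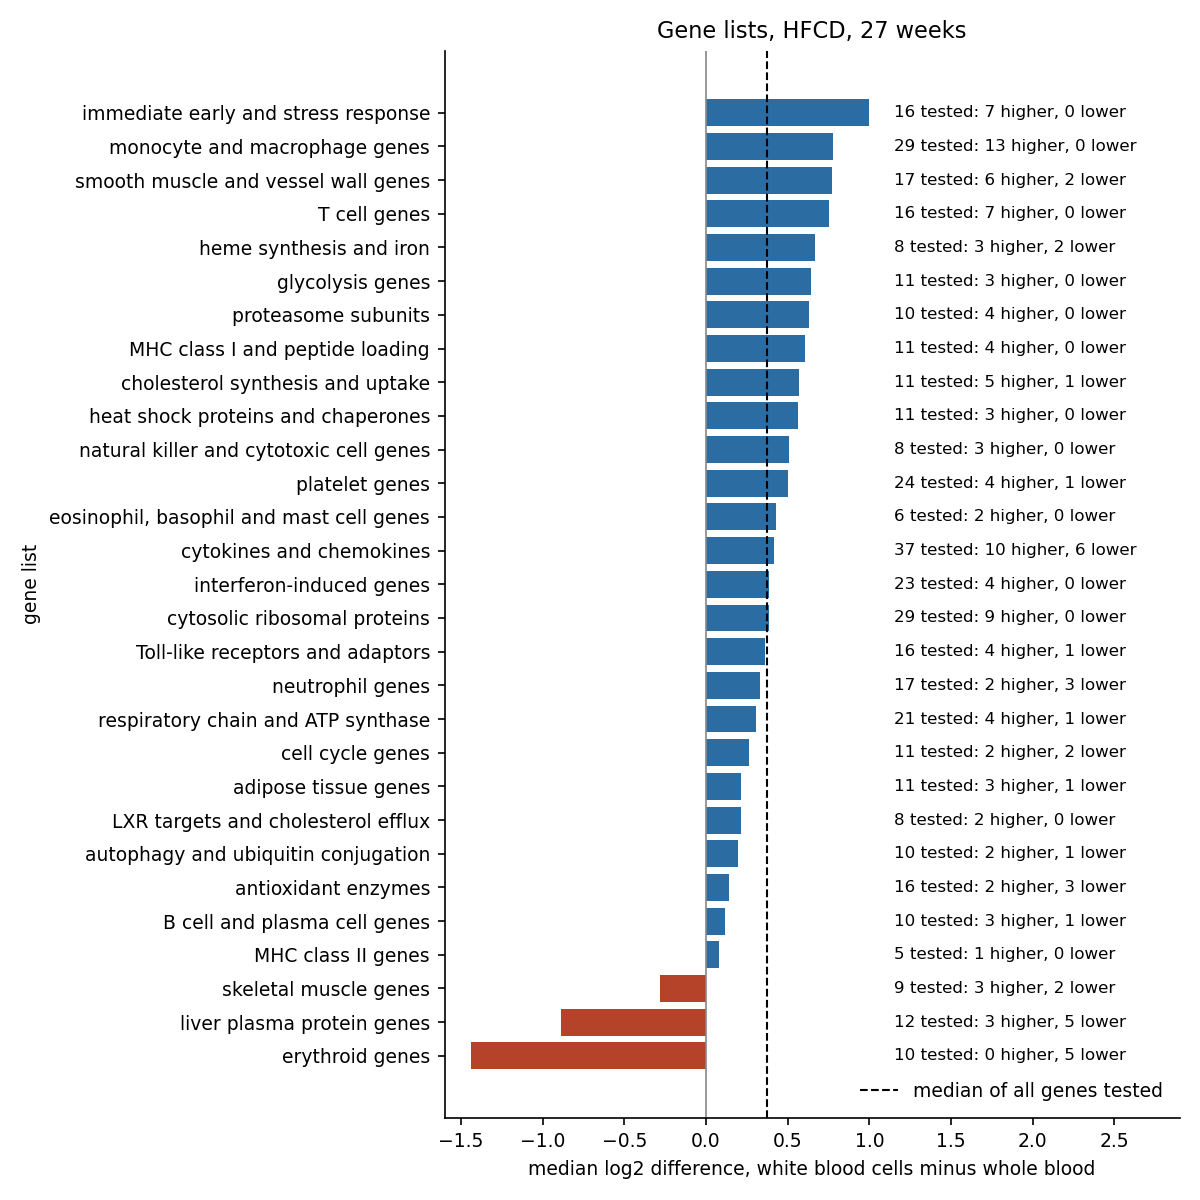
Median log2 difference, white blood cells minus whole blood, of the genes tested in each list, with the numbers that were higher and lower; bars start at 0 and the dashed line is the median of all genes tested (0.37). The lists run from −1.44 for erythroid genes to 1.0 for immediate early and stress genes.

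Several genes that the study of these pigs names for its diets were read in the same arrays. CXCL10, a chemokine induced by interferon, was at 9.16, 9.95 and 10.91 in whole blood and 9.63, 14.09, 11 and 11.30 in white blood cells (1.5, SE 0.94, adjusted p = 0.221), and RSAD2, an antiviral protein, at 9.5, 11.31 and 11.61 in whole blood and 8.98, 11.93, 11.27 and 11.43 in white blood cells (0.10, SE 0.76, adjusted p = 0.925). MX1 and MX2 are antiviral GTPases (0.44, adjusted p = 0.281 and 0.91, adjusted p = 0.209). All 4 overlapped and did not pass, and all were highest in white blood cell replicate 2. IL18, a cytokine of macrophages (0.93, adjusted p = 0.0760), CCL3L1, a chemokine for monocytes (0.82, adjusted p = 0.184), and LGALS9, a lectin that binds T cells (−0.35, adjusted p = 0.581), did not pass with all arrays. MGP, an inhibitor of calcification, MAOA, which degrades amines, and GRK7, a receptor kinase, also did not pass (0.44, adjusted p = 0.473; 0.51, adjusted p = 0.186; −1.42, adjusted p = 0.0518).

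CNN1, calponin of smooth muscle, was at 4.91, 5.42 and 3.76 in whole blood and 7.03, 1.49, 6.61 and 8.38 in white blood cells, with white blood cell replicate 2 the lowest of all (1.18, adjusted p = 0.528). Without that array CNN1 gave 2.64 (adjusted p = 0.00647). TPM1, a tropomyosin, gave 1.53 (adjusted p = 0.184) and without it 2.38 (adjusted p = 0.00406), while its other tested probe fell with all arrays (−1.25, adjusted p = 0.0342). WNT10B, a growth signal, gave 0.98 (adjusted p = 0.104) and without it 1.38 (adjusted p = 0.00495). IL18 gave 1.12 without it (adjusted p = 0.0379). In all 4 replicate 2 was the lowest of the white blood cell arrays, as in the platelet genes.

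Probes of 1 gene did not always move together. Of 119 genes with several called probes 111 were called in 1 direction and 8 in both: CAPNS1, CXCL16, INSIG1, MYD88, P2RY6, PNPLA2, SLA-1 and VPS33A, taken up after their values were seen. MYD88, the adaptor of Toll-like receptors, was at 14.02, 15.87 and 15.08 in whole blood and 13.31, 13.87, 13.73 and 13 in white blood cells on a probe that holds the bases AATAAA (−1.51, SE 0.43, adjusted p = 0.0224; adjusted p up to 0.0713 with 1 array left out, no longer passing without whole blood replicate 2 or 3 or white blood cell replicate 1 or 4). Its other probe, present on 1 of 3 whole blood arrays, was at 3.43, 1.56 and 2.08 in whole blood and 5.54, 5.02, 5.87 and 5.11 in white blood cells (3.02, or 1.80 with the dim arrays raised, adjusted p = 0.00154). PNPLA2, a triglyceride lipase, fell on 1 of its 4 tested probes (−1.03, adjusted p = 0.0230; adjusted p up to 0.0599 without whole blood replicate 3 or white blood cell replicate 1) and rose on another (0.99, adjusted p = 0.0386). ROMO1, a mitochondrial membrane protein, did not pass on its brightest probe (0.13, adjusted p = 0.721) and fell on the other 3: −1.32 (adjusted p = 0.00337), −0.59 (adjusted p = 0.0406) and −1.36 (adjusted p = 0.00296).

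Sequences are shown for genes whose probes differed in direction or size. Capitals mark AATAAA, the bases of a polyadenylation signal, in the MYD88 probe that fell, a ROMO1 probe that fell and the brighter probe of HBE1. The MYD88 probe that rose and the second CXCL8 probe, shown whole, do not hold these bases. Nor does another ROMO1 probe that fell (−0.59), whose bases are not shown. AATAAA occurred in 16.4% of all probes tested, in 13.5% of those that rose and in 8.87% of those that fell. Where the probes bind was not tested.
MYD88 with AATAAA: ccctaggtttatAATAAAgagttctatac
ROMO1 with AATAAA: cccatgttctatAATAAAacaaacctttga
HBE1 with AATAAA: cagcttctgtttAATAAAgtacattctgtt
MYD88 without AATAAA: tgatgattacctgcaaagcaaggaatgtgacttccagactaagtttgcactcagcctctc
CXCL8 without AATAAA: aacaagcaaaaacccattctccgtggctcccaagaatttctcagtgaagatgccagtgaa

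White blood cells differed from whole blood in much the same genes in pigs on the other diets. Within a sample type the 3 diets shared RNA kit, scan day and slides, so this agreement is also one between arrays made together. With the control diet, 4 arrays against 4, 3933 of 19022 probes were higher (20.7%) and 3608 lower (19.0%), 39.6% together, with a median of 0.17. With HFCSD, 4 against 3, 6957 of 19689 were higher (35.3%) and 4252 lower (21.6%), 56.9% together, with a median of 0.42. Across probes the difference with HFCD correlated with that of the control diet (r = 0.955, 18364 probes) and HFCSD (r = 0.932, 18655 probes). Of probes tested in both, 3180 were higher with HFCD and control, 70.6% of the HFCD calls and 86.2% of the control calls, and 3095 were lower, 85.9% and 87.7%. HFCD and HFCSD shared 4067 higher probes, 88.2% and 63.6%, and 2977 lower, 81.2% and 72.3%. None was called in opposite directions.

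CXCL2, RGS1, THBS1 and CLPS, which had large differences with HFCD, moved alike with the other diets. CXCL2 was present on 2 of 4 whole blood arrays with the control diet and on none with HFCSD. With the control diet CXCL2 rose by 5.91, or 5.11 with the dim arrays raised (adjusted p = 0.00124), and with HFCSD at least 42.9-fold (adjusted p = 0.00147). RGS1, present on all arrays, was higher by 4.70 (adjusted p = 0.000115) and 4.94 (adjusted p = 0.000217). THBS1 gave −4.29 (adjusted p = 0.000285) and −6.20 (adjusted p = 0.0000360), and CLPS −6.33 (adjusted p = 0.000132) and −6.90 (adjusted p = 0.000159). Erythroid genes had a median of −1.02 with the control diet and −2.31 with HFCSD, against −1.44 with HFCD, and monocyte genes 0.98 and 0.72, against 0.78. Liver plasma protein genes had medians of 0.35 and −2.10, against −0.88.

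A test of whether the difference itself changed with diet (limma, difference of differences) called 0 of 20072 probes for HFCD against control, with 267 (1.33%) at an unadjusted p under 0.05. Against HFCSD 6 of 20448 were called (0.0293%), 1 higher (0.00489%) and 5 lower (0.0245%), with 1512 (7.39%) at an unadjusted p under 0.05. The calls depended on the processing: 0 were left with scaling to the 75th percentile, normexp correction or the replicate number as a block, or without whole blood replicate 1 of HFCD or white blood cell replicate 4 of HFCSD, and 33 were called without whole blood replicate 3 of HFCSD. The 6 probes were chosen by that test after their values were seen, and none has a gene symbol. A probe described as an insulin receptor substrate was at 4.52, 4.81 and 3.93 in whole blood with HFCD and 1.53, 1.45 and 1.42 with HFCSD, while white blood cells were at 2.98, 1.69, 2.74 and 2.46 and 2.78, 2.30, 2.88 and 2.94 (called lower). It was present only in whole blood with HFCD. The 1 higher probe was at 2.41, 2.91 and 1.96 in whole blood with HFCD and 6.27, 5.21 and 5.02 with HFCSD, present in whole blood with HFCSD alone. No size is given for either, as each was present on no array of the 3 other groups. Both probes entered the test through 1 group, which favours a difference. With no filter the adjusted p was 0.0177 and 0.0406.

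Whole blood of HFCD pigs from earlier weeks shares its feeding but not its arrays' scan day, and its levels are given as description. THBS1 had a mean (SD) of 9.42 (1.74) at 10 weeks and 11.13 (2.0) at 19 weeks, against 11.43 (1.48) at 27 weeks in whole blood and 5.33 (0.86) in white blood cells. CXCL2 was at 2.81 (0.97) and 1.98 (0.62) at these weeks, below every white blood cell array with HFCD, and RGS1 at 6.15 (0.15) and 6.04 (0.45).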

How the data were processed

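Blood RNA of miniature pigs was measured on 45 Agilent porcine arrays read in 1 colour, of which 7 are compared. The authors deposited, for each array, the processed spot intensity of Agilent Feature Extraction (version 9.5.3.1 per the labels and 10.5.1.1 per the file headers), with background already subtracted. The series table they deposited has quantile normalized intensity on a linear scale, and its log2 values were used as an alternative.

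An array has 45220 spots. Control spots (1417) were not used, which leaves 43803 spots of 43603 probes. Intensities were taken to log2 and quantile normalized over all 45 arrays, spots the software marked as outliers were left out, and several spots of a probe were averaged. The filter kept a probe if at least 1 group had it present, by the flag for well above background, on all its arrays that could be used. For the 50 probes with several spots, presence was taken from the share of usable spots with the flag. Samples were grouped by the labels (sample type, diet, week). The groups were compared with limma 3.58.1 in R 4.3.3 (moderated t-test, Benjamini-Hochberg at 0.05), and array shares by an exact permutation test with scipy 1.17.1. Tables and figures were made in Python 3.11.15 with pandas 2.3.3, numpy 2.4.6 and matplotlib 3.10.9. The code was tested on simulated data. No array was left out. With 4 and 3 arrays only large or steady differences pass.

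The array annotation names 3040 probes of 1979 genes, and the other probes keep their array number. Genes are named by a rule: the 10 largest called in each direction, members of 29 gene lists by size of difference (6) and by level (4), and genes the study names. The rule names 226 genes, of which 107 are given. These were picked by hand for length, with their values known, and some of the rest are not reported here. The gene lists and their members were chosen with earlier results of these data known. Alternatives were other normalizations, filters, tests, fits with the slide or the replicate number as a block, the mean of a gene's probes, and leaving out each array in turn.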

Additional observations from a re-analysis of the deposited data

Results flagged for a closer look

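A test for a far array among the 4 white blood cell arrays was applied to 139 values and 3 passed its critical value. Chance gives about 1 in 20 groups. COX7C was at 12.43 in replicate 4 (ratio 0.830) and INSIG1 at 7.58 in replicate 4 (0.844). The mean level of the list of LXR targets and cholesterol efflux was 7.97 in replicate 2 (0.926). The test of whether the difference between sample types changed with diet called 6 probes between HFCD and HFCSD and 0 between HFCD and control.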

How the results depend on the processing

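Of 107 genes named, 80 were called and 62 stayed past the threshold under every alternative. The 18 others were BIRC5, CD2, INSIG1, IRF9, KLF1, LDHA, MGST1, MYD88, PNPLA2, PSME2, RPL22, RXRA, SLA-7, SPTB, SQLE, TGFB1, TLR8 and VTN. Some genes not called changed as well. FTH1 and GRK7 kept their result in 15 of 19 alternatives, LYZ and IL18 in 16 and FCGR3A in 17. Without white blood cell replicate 2, CNN1, TPM1, TPM4, WNT10B and IL18 passed. The number of probes higher was 3059–4938 with 1 array left out, 3059 without whole blood replicate 3, and the number lower 3074–4097, against 2516 among probes present on all 7 arrays. The median difference over all probes was 0.10–0.23 with 1 array left out, 0.38 with scaling to the 75th percentile, 0.12 with normexp correction of the background, 0.15 with a weaker flag for presence, 0.064 without a filter and 0.24 for probes present on all 7 arrays. The difference in the share of present spots, −1.04, was −2.34 to 0.33 with 1 array left out and −3.39 with the weaker flag. The test of HFCD against control called 0–1 probes with 1 array left out, and that against HFCSD 0–33, 0 with scaling to the 75th percentile, 0 with normexp correction, 17 without a filter and 3 when only the 4 groups were fitted. With the mean of a gene's probes in place of the brightest, MYD88 gave 0.76 (adjusted p = 0.0278), INSIG1 −0.61 (adjusted p = 0.158) and ROMO1 −0.79 (adjusted p = 0.0189), each of the other sign.

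With the slide as a random block 3389 probes were higher and 3245 lower, and of genes with a symbol 19.0% rose, against 21.3% with no filter and 27.4% in the first fit. With the replicate number as a block 2320 probes were higher and 2799 lower, and the test of HFCD against HFCSD called 0. Deviations from the group means correlated at −0.41 to 0.17 between same-numbered arrays of the 2 sample types. Between the 9 pairs with different numbers they correlated at −0.42 to 0.58. The labels pair no animals.

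Kit, scan day and slide go with sample type, and the cause of the differences was not tested. The 4 and 3 arrays limit precision. Most probes on the array carry no gene symbol.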

Other observations

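B cell genes were mixed: 3 of the 10 genes tested rose (30%, against 27.4% of all genes), 1 fell and 6 did not pass (median 0.12). Their level was 8.04, 7.65 and 8.05 in whole blood and 8.38, 7.92, 8.28 and 8.29 in white blood cells. CD72, an inhibitory receptor of B cells, was at 7.69, 6.73 and 7.12 in whole blood and 8.50, 8.54, 8.40 and 8.68 in white blood cells and rose (1.35, SE 0.26, adjusted p = 0.00465), while IGHG, the immunoglobulin G heavy chain and brightest probe of the list, did not pass (0.12, adjusted p = 0.765). Without whole blood replicate 2 the list median was −0.16, and the 1 fall was lost without whole blood replicate 3 or white blood cell replicate 1, 2 or 4. In the eosinophil, basophil and mast cell list 2 of the 6 genes tested rose (33.3%), 0 fell and 4 did not pass (median 0.43). With scaling to the 75th percentile 4 rose (median 0.79), where 38.5% of all genes did. MS4A2, a chain of the receptor for immunoglobulin E, was at 5.01–6.06 in whole blood and 6.83–7.18 in white blood cells (1.46, adjusted p = 0.00425), and with 1 array left out 1–2 members rose, fewer in each case but without white blood cell replicate 3.

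Interferon-induced genes were higher in 4 of 23 (17.4%, against 27.4% of all genes) and lower in none (median 0.39, against 0.37). Their mean level was 10.02, 10.33 and 10.36 in whole blood and 10.32, 11.48, 10.84 and 10.63 in white blood cells, highest in white blood cell replicate 2. IRF3, a factor that starts the interferon response, was at 6.09, 5.79 and 4.51 in whole blood and 7.67, 7.39, 8.35 and 7.92 in white blood cells (2.37, SE 0.41, adjusted p = 0.00281). IRF9, which carries the interferon signal to the nucleus, was at 8.99–9.41 in whole blood and 10.05–10.37 in white blood cells (1.05, adjusted p = 0.00518), with 1.42 (adjusted p = 0.00134) and −0.03 (adjusted p = 0.961) on 2 other probes. Among Toll-like receptors and adaptors 4 of the 16 genes tested rose (25%), 1 fell and 11 did not pass (median 0.36), 1–6 rising with 1 array left out (median 0.12–0.52), moved without whole blood replicate 2 or 3 or white blood cell replicate 1 or 3, and the 1 fall, MYD88, was lost without whole blood replicate 2 or 3 or white blood cell replicate 1 or 4. TLR8, a receptor for RNA, was at 4.75–4.88 in whole blood and 5.40–6.28 in white blood cells (1.08, adjusted p = 0.0108).

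Stress and growth lists are given beside the shares of all genes, of which 27.4% rose and 11.9% fell. In heat shock proteins and chaperones 3 of the 11 genes tested rose (27.3%), 0 fell and 8 did not pass (median 0.56), and the number that rose was 0–3 with 1 array left out, moved without whole blood replicate 1, 2 or 3 or white blood cell replicate 1, 3 or 4. Among antioxidant enzymes 2 of the 16 genes tested rose (12.5%), 3 fell and 11 did not pass (median 0.14); MGST1, a glutathione transferase, rose (1.14, adjusted p = 0.0156), MT3, a metallothionein, fell (−1.57, adjusted p = 0.00631), and the median was −0.21 without whole blood replicate 1. The number of antioxidant genes that rose was 1–4 with 1 array left out, moved without whole blood replicate 2 or 3 or white blood cell replicate 1, 2 or 4, and that of falls 1–4, moved without whole blood replicate 3. In autophagy and ubiquitin genes 2 of the 10 genes tested rose (20%), 1 fell and 7 did not pass (median 0.20), and the number that rose was 0–1 with any 1 array left out. In cell cycle genes 2 of the 11 genes tested rose (18.2%), 2 fell and 7 did not pass (median 0.26): CCND3, a cyclin of lymphocytes, and PCNA, the clamp of DNA polymerase, rose (2.07, adjusted p = 0.00185; 1.04, adjusted p = 0.00872), and BIRC5, survivin, fell (−1.23, adjusted p = 0.0129). BIRC5 did not pass with scaling to the 75th percentile (adjusted p = 0.0768) or with the replicate number as a block (adjusted p = 0.0755). The falls numbered 1–3 with 1 array left out, moved without whole blood replicate 3 or white blood cell replicate 1, 3 or 4. Adipose tissue genes gave 3 higher and 1 lower of 11 (median 0.21), and 0–2 fell with 1 array left out, moved without whole blood replicate 1 or 3 or white blood cell replicate 1 or 3.

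The largest falls of all were in probes without a symbol, taken up after their values were seen. A_72_P174436 was at 13.16, 15.50 and 14.60 in whole blood and 4.34, 4.90, 6.90 and 5.81 in white blood cells and fell 489-fold (−8.93, adjusted p = 0.000671). The largest rise without a symbol was that of A_72_P012641, at 3.0, 1.44 and 3.12 in whole blood and 7.76, 8.16, 7.29 and 7.43 in white blood cells, at least 18.2-fold (5.14, adjusted p = 0.000671). Of 17559 probes without a symbol 4099 were higher and 3792 lower.

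Probes that fell were richer in G and C, with a median of 41.7% against 38.3% of probes that rose and of all probes tested. Of probes with at most 35% G and C, 29.9% were higher and 13.6% lower (5568 probes, median 0.43), and of those from 35 to 45%, 21.6% and 23.4% (13480 probes, median 0.08). The shares did not follow base content above that: 31.3% and 20.1% from 45 to 55% (319 probes, median 0.27), and 25.5% and 21.3% beyond (47 probes, median −0.31). AATAAA occurred in 13.5% of probes that rose, 8.87% of those that fell and 16.4% of all. The part of base content was not tested.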
